A study of Mus musculus with 5 samples.

Results

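Expression of 8 transcription factors of the cDC1 lineage (Irf8, Batf3, Id2, Zbtb46, Nfil3, Spi1, Bcl6 and Ikzf1) was followed in MutuDC cells during treatment with Fanchinoline, spelled as in the labels. MutuDC is an immortalised line of mouse dendritic cells that resemble type 1 conventional dendritic cells (cDC1). The factors were chosen by name, and each matched 1 of the 53700 gene entries of the count table. All 8 were among the 8846 entries with at least 10 CPM (counts scaled to library size) in at least 1 library, which are called the compared genes. Poly-A RNA was sequenced from 5 groups: a vehicle control, which stands for 0 h, and treatment for 2, 6, 12 or 24 h. The table holds 1 library per group, although the series' design text speaks of triplicates. That text also names untreated rather than vehicle-treated cells as the control, and neither labels nor design text state the dose. Vehicle was sampled at the start alone, so exposure to the compound and hours in culture cannot be told apart.

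The cDC1 take up dead cells and present their antigens to CD8 T cells. IRF8 is the factor their development depends on, and BATF3, which pairs with JUN proteins, keeps Irf8 expressed through an enhancer downstream of the gene. ID2 holds E proteins away from DNA, NFIL3 acts upstream of Id2 in the progenitors, and ZBTB46 marks conventional dendritic cells. PU.1 (encoded by Spi1) binds composite sites together with IRF8, BCL6 is a repressor, and IKAROS (encoded by Ikzf1) acts in lymphoid and dendritic progenitors.

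RefSeq start-site windows from GRCm38.p6 (250 bases before to 50 after the start) were at hand for 7 of the 8 factors, with Spi1 not among them. The windows of Irf8, Batf3 and Zbtb46 are shown because the transcripts of these genes fell across the treated libraries (values below). Of 8 motifs searched on both strands, capitals mark matches to 7; the E-box CANNTG, which occurs in 72.3% of all windows, is left in lower case. The 7 were GAAA followed by GAAA after 2 bases of any kind (IRF pair), GGAA followed by GAAA after 2 bases of any kind (ETS with IRF), TGANTCA (AP-1), GAGGAAGT (PU.1), TTANGTAA (NFIL3), TTCNNNGAA (STAT and BCL6) and TGGGAA (IKAROS). The sequences read 5′ to 3′ on the gene's strand.
Irf8, chr8:120736108-120736407, plus strand: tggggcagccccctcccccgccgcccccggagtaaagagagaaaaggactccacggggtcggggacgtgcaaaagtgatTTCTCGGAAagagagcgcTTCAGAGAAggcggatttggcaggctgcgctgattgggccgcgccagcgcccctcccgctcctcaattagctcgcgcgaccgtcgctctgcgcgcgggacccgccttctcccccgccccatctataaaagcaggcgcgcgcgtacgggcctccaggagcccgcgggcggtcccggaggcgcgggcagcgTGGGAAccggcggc
Batf3, chr1:191098164-191098463, plus strand: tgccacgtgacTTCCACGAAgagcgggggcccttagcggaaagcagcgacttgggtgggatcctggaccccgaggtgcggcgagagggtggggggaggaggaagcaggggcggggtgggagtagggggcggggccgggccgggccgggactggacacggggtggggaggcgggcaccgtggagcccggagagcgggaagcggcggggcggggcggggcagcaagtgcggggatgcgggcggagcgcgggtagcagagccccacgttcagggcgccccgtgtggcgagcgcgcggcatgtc
Zbtb46, chr2:181424339-181424638, minus strand: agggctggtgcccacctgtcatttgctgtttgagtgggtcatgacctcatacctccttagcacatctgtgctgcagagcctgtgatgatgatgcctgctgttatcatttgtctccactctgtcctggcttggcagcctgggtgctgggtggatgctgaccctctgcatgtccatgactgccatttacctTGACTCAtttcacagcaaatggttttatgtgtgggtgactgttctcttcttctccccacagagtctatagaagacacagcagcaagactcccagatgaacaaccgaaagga

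The Irf8 window held TTCNNNGAA at -171 and -153 and TGGGAA at 36 bases from the start. The Batf3 window held TTCNNNGAA at -239, and the Zbtb46 window held TGANTCA, the AP-1 motif that BATF and JUN proteins bind, at -61. Over all 32851 windows of the same length, TTCNNNGAA occurred in 8.3%, TGANTCA in 7.81% and TGGGAA in 25.6%. The E-box, which E proteins bind, matched at -247 and -30 in the Batf3 window, 6 times in the Zbtb46 window and not in the Irf8 window shown. The remaining 4 motifs had no match in these 3 windows; they occurred in 3.44% (IRF pair), 2.72% (ETS with IRF), 3.2% (PU.1) and 2.32% (NFIL3) of all windows. The Zbtb46 window lies at an inner start, since this minus-strand gene begins at 181459426, so it does not show the outermost start. Nor does the Batf3 window, which lies inside a plus-strand gene that begins at 191097847. In base composition the Irf8 and Batf3 windows shown, with 70.0% and 75.7% G or C and 38 and 34 CpG, differed from this inner Zbtb46 window, with 50.7% and 1 CpG. The medians of all windows were 52.7% and 7. A second Irf8 window, at an inner start (chr8:120738389-120738688), had 54.7% and 8 CpG. It held TGGGAA on the opposite strand at -242 and the E-box at -205 and -193. A match is a description of the letters and was not tested as a binding site.

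Total counts per library lay between 33568526 and 42854511, and CPM values were scaled with edgeR's TMM factors. Intervals are exact (Clopper-Pearson) 95% intervals that cover counting error only and take 1 count as 1 read. The vehicle library stood apart from the treated libraries. Mitochondrially encoded genes took 2.58% of its counts against 1.47 to 1.78% with the compound. The median log2 ratio to vehicle of the longest 20% of transcripts lay 0.57 to 0.75 above that of the shortest 20%, whereas for 24 h over 2 h this difference was 0.16. Ratios to vehicle are therefore given also after a smooth correction for transcript length and GC content (length-adjusted), and ratios between treated libraries are set beside them. The markers of the labelled cell type were present, since 7 of 8 cDC1 genes were compared and their summed level was 3416 to 4227 CPM, with Xcr1 and Clec9a among them. Itgae was at 1.48 to 2.47 CPM. Of 7 cDC2 markers only Itgam was among the compared genes, and Cd209a was at 0. The cDC2 list summed to 112 CPM in vehicle and 160, 142, 124 and 187 CPM at 2, 6, 12 and 24 h. Itgam had a log2 ratio to vehicle of 0.75 at 24 h, or 0.53 after the length correction. The T-cell genes Cd3d, Cd3e, Cd3g, Trac and Cd2 had 0 counts in every library, and the summed B-cell, T-cell and NK-cell markers reached at most 1.13, 0.59 and 2.27 CPM. Of the macrophage markers, Csf1r and Lyz2 were among the compared genes and Mertk was at 0; the list summed to 451 CPM in vehicle and 411, 390, 331 and 357 CPM at 2, 6, 12 and 24 h.

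Irf8 was the most abundant of the 8 factors, with Id2 next. Per kilobase of annotated exon in vehicle it stood at 604 CPM, followed by Id2 at 477, Spi1 at 165, Batf3 at 44.9, Ikzf1 at 15.7, Bcl6 at 11.8, Nfil3 at 6.16 and Zbtb46 at 5.88 CPM per kilobase. This order was the same in all 5 libraries. Per kilobase of the longest transcript the top 4 kept their order in every library, but Bcl6 and Ikzf1 changed places in vehicle and Zbtb46 stood above Nfil3 in all libraries except that of 12 h. The order within those pairs thus depends on the length used. By CPM, Irf8 ranked 10 among the compared genes in vehicle and 7, 9, 11 and 11 in the treated libraries in order of time, and it took 0.344 to 0.510% of all counts.

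**Figure D1:**
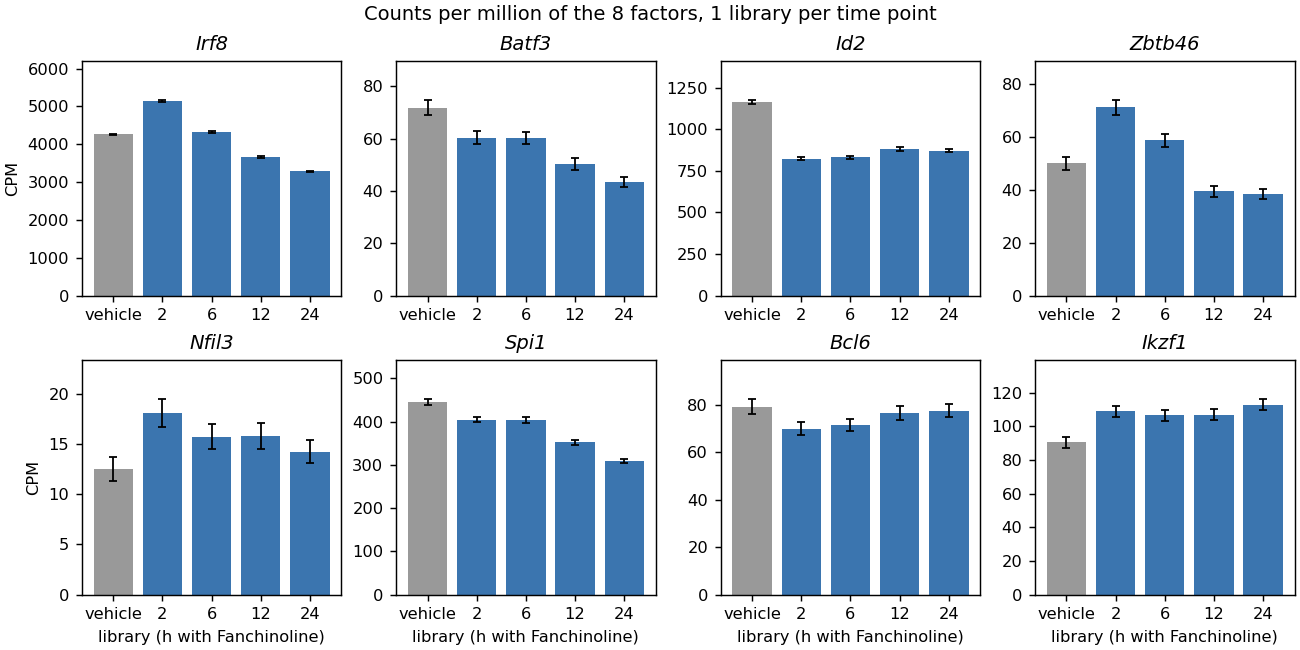
CPM of each factor (vertical axis, from 0) in the vehicle library (grey) and after 2, 6, 12 and 24 h with Fanchinoline (blue, evenly spaced libraries on the horizontal axis); bars are single libraries and error bars are exact 95% counting intervals. Irf8 and Zbtb46 peak at 2 h and are lowest at 24 h, Batf3 and Spi1 are highest in vehicle and lowest at 24 h, and Id2 is lower in all 4 treated libraries than in vehicle.

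No factor doubled or fell to the matching extent against vehicle. The size rule asked for a log2 ratio of at least 1 in size and an interval that excludes a ratio of 1, and it compares libraries, not conditions. Of the 8 factors 0 passed it at 2 h, where 1.33% of compared genes did. The count was also 0 at 6 h (background 1.94%), 12 h (3.07%) and 24 h (4.09%). The factors split into 4 above and 4 below vehicle at 2 h and at 6 h, and into 2 above and 6 below at 12 h and at 24 h. Intervals excluded a ratio of 1 for 4 above and 4 below at 2 and 6 h, and for 2 above and 5 below at 12 and 24 h; over all compared genes they did so for 76.9, 78.3, 79.5 and 82.6%. With a size of 0.5 in place of 1, the rule took Zbtb46 and Nfil3 at 2 h (background 16.4%), no factor at 6 h (19.2%), Batf3 at 12 h (22.9%) and Batf3 and Spi1 at 24 h (27.5%). Id2 at 2 h was just short of it, at -0.499. The median log2 ratio of the 8 was 0.07, -0.06, -0.28 and -0.38 at 2, 6, 12 and 24 h, beside 0.03, 0.04, 0.02 and -0.00 over all compared genes. Length-adjusted, the factors' medians were 0.02, -0.06, -0.16 and -0.23. These 4 comparisons share the vehicle library and are not independent of each other. In bulk RNA, fewer cells that express a gene and less RNA per cell cannot be told apart.

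Batf3 had a falling slope over all 5 libraries, with a plateau between 2 and 6 h. Batf3, Zbtb46, Irf8 and Spi1 had falling slopes across the 4 libraries with the compound. Over all 5 libraries Batf3 alone of the 8 passed edgeR's quasi-likelihood method, applied to a slope on log2(hours + 1). Its slope was -0.15 on the log2 scale per doubling of hours + 1 (Benjamini-Hochberg adjusted p = 0.0288), where 9.41% of 13915 genes passed, 4.05% as falling. The slopes of Irf8 and Zbtb46, whose levels turn after 2 h, were -0.10 and -0.13 (edgeR adjusted p = 0.18 and 0.253). Without the vehicle library 4 of the 8 passed, all downward, where 15.8% of 13764 genes did, 7.83% as falling. There Zbtb46 fell by 0.32 per doubling (edgeR adjusted p = 0.00457) and Irf8 by 0.21 (adjusted p = 0.00688). Batf3 fell by 0.16 (edgeR adjusted p = 0.0192) and Spi1 by 0.13 (adjusted p = 0.0312). Both tests measure scatter as deviation from the fitted line, not between replicates, and neither carries a length adjustment.

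Irf8 (ENSMUSG00000041515, chr8:120736358-120756694 of GRCm38, plus strand) encodes the factor on which cDC1 development depends. Its level was 4259 CPM in vehicle, and 5140, 4317, 3663 and 3283 CPM after 2, 6, 12 and 24 h. The 2 h library was the highest and the 24 h library the lowest, and 6 h lay closest to vehicle. The log2 ratio to vehicle was 0.27 at 2 h (0.26 to 0.28), 0.02 at 6 h, -0.22 at 12 h and -0.38 at 24 h (-0.39 to -0.36). Length-adjusted it was 0.18, -0.05, -0.27 and -0.40, so the 2 h excess was smaller and the sign at 6 h changed. From 2 to 24 h the log2 ratio was -0.65 (-0.66 to -0.64), or -0.57 length-adjusted, and 2.91% of compared genes had a lower value. The decline ran through every step between consecutive treated libraries, with log2 ratios of -0.25, -0.24 and -0.16.

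Spi1 (ENSMUSG00000002111, chr2:91082390-91115756, plus strand) encodes PU.1, the ETS factor that recruits IRF8 to composite sites. It measured 444 CPM in vehicle, and 404, 403, 352 and 309 CPM after 2, 6, 12 and 24 h. Vehicle was highest, the 2 and 6 h libraries were within counting error of each other, and the later libraries were successively lower. At 24 h the log2 ratio to vehicle was -0.52 (-0.56 to -0.49), or -0.29 length-adjusted. From 2 to 24 h it was -0.39 (-0.42 to -0.35), or -0.20 length-adjusted. The slope over 5 libraries was -0.10, with an edgeR adjusted p of 0.0557. The summed macrophage markers given above were also lower at 12 and 24 h than in vehicle, and their part in the Spi1 values was not tested. The count ratio of Irf8 to Spi1 was 9.58 in vehicle (9.42 to 9.75), 12.7 at 2 h (12.5 to 12.9) and 10.4 to 10.7 at the later times. The count ratio, which carries no length adjustment, was highest at 2 h. Adjusted log2 ratios to vehicle at 2, 6, 12 and 24 h were 0.18, -0.05, -0.27 and -0.40 for Irf8. For Spi1 they were -0.10, -0.08, -0.16 and -0.29, so that adjusted Irf8 stood below Spi1 at 12 and 24 h.

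Batf3 (ENSMUSG00000026630, chr1:191097847-191108945, plus strand) encodes the bZIP factor that maintains Irf8 in cDC1. Vehicle held 71.7 CPM, and the treated libraries held 60.4, 60.1, 50.2 and 43.4 CPM in order of time. Vehicle was the highest library and 24 h the lowest, with a plateau between 2 and 6 h. The log2 ratio at 24 h was -0.72 (-0.81 to -0.64), the largest in size of the 8 at that time, and 4.47% of compared genes lay lower. Length-adjusted it was -0.38. At 2 and 6 h, where the log2 ratios were both -0.25, the length-adjusted values of -0.07 at both times left little difference from vehicle. Between 2 and 24 h the log2 ratio was -0.48 (-0.57 to -0.39), or -0.30 length-adjusted. The call over 5 libraries was lost without the 12 h library (edgeR adjusted p = 0.135), without the 24 h library (0.13), on a slope per hour (0.124) and without a filter on low counts (0.0787). It held without the vehicle, 2 h or 6 h library (0.0192, 0.0199 and 0.0494). DESeq2's Wald test gave 0.000942 for Batf3, and 0.0104 for Spi1.

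The JUN proteins, with which BATF3 forms its DNA-binding dimer, were measured beside it. Junb stood at 132 CPM in vehicle, and at 167, 150, 94.6 and 76.8 CPM after 2, 6, 12 and 24 h. Jund stood at 96.7, 93.5, 104, 53.9 and 44.6 CPM in the same order. Junb was highest at 2 h and Jund at 6 h, and both were lowest at 24 h. For 24 h over 2 h, Junb and Jund passed the size rule with log2 ratios of -1.12 (-1.18 to -1.06) and -1.07 (-1.15 to -0.99), a comparison in which 1.55% of genes did. Length-adjusted, these were -0.84 and -0.28, so that neither reached the size. Jun had log2 ratios to vehicle of 0.16, 0.16, -0.01 and -0.28, or 0.05, 0.08, -0.05 and -0.30 length-adjusted. All 3 fell in edgeR's slope over the treated libraries (adjusted p = 0.0036 for Junb, 0.0175 for Jund and 0.0282 for Jun). Batf2, a BATF relative that can replace BATF3, was at 13.0 CPM in vehicle and 7.85 to 8.88 CPM in the treated libraries. Batf itself had at most 3 counts in any library.

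**Figure D2:**
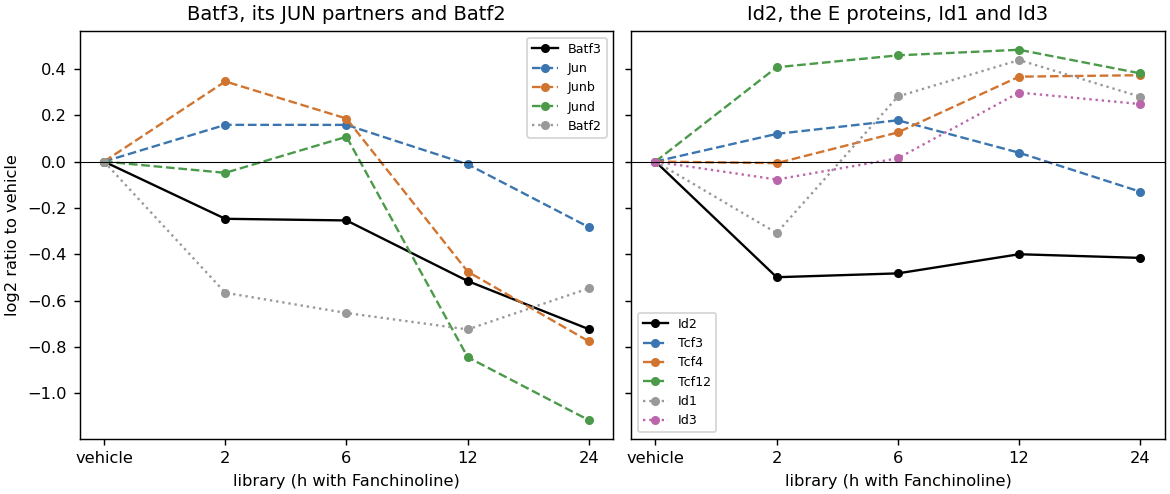
Log2 ratio to vehicle (vertical axis) in each library (horizontal axis, evenly spaced) of Batf3 with Jun, Junb, Jund and Batf2 (left) and of Id2 with the E proteins Tcf3, Tcf4 and Tcf12 and with Id1 and Id3 (right); points are single libraries and vehicle is 0 by construction. On the left Batf3, Junb and Jund are all below -0.7 at 24 h; on the right Id2 is between -0.50 and -0.40 in every treated library while Tcf12 is above 0.3.

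Id2 (ENSMUSG00000020644, chr12:25093799-25097140, minus strand) encodes the inhibitor of E proteins. Its level was 1162 CPM in vehicle and 822, 832, 881 and 871 CPM at 2, 6, 12 and 24 h. All treated libraries lay below vehicle and close to each other. The log2 ratio was -0.50 at 2 h (-0.52 to -0.48) and -0.42 at 24 h (-0.44 to -0.40). Length adjustment reduced this to -0.19 at 2 h and -0.17 at 24 h. From 2 to 24 h the log2 ratio was 0.08 (0.06 to 0.11), or 0.03 length-adjusted. The edgeR slope over 5 libraries was -0.08 (adjusted p = 0.24), and without vehicle it was 0.04 (adjusted p = 0.446).

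Id2 was set against the E proteins it binds. Counts of Id2 were 6.68 times the summed counts of Tcf3, Tcf4 and Tcf12 in vehicle (6.49 to 6.86). With the compound the ratio was 4.22, 4.08, 4.48 and, at 24 h, 4.84 (4.73 to 4.96). The count ratio was lower in all treated libraries, with a log2 change of -0.46 at 24 h, but it carries no length adjustment. Adjusted log2 ratios at 24 h were -0.17 for Id2, -0.02 for Tcf3, -0.13 for Tcf4 and 0.04 for Tcf12, which lie much closer together. Tcf4, which drives the plasmacytoid fate that ID2 opposes, stood at 21.1 CPM in vehicle, and at 21.0, 23.0, 27.2 and 27.3 CPM after 2, 6, 12 and 24 h. It rose over the treated libraries in a slope without length adjustment (0.14, edgeR adjusted p = 0.0378). For 24 h over 2 h its log2 ratio was 0.38, or 0.10 length-adjusted. Its log2 ratio to vehicle at 24 h was 0.37, but -0.13 length-adjusted. Of 7 plasmacytoid markers Bst2 (60.1 to 66.1 CPM) and Tcf4 were compared, the list summed to 84.4 to 93.9 CPM, Siglech reached at most 0.26 CPM, and Ly6d and Klk1 had 0 counts in every library. Among the other inhibitors of the family, Id3 rose over the treated libraries (slope 0.13, edgeR adjusted p = 0.0368) from 185 CPM at 2 h to 232 CPM at 24 h, and Id1 measured 17.3 CPM in vehicle and 13.9, 21.0, 23.4 and 21.0 CPM with the compound.

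Zbtb46 (ENSMUSG00000027583, chr2:181387762-181459426, minus strand) encodes a zinc finger repressor that marks conventional dendritic cells. The vehicle level of 50.1 CPM compared with 71.1, 58.6, 39.4 and 38.3 CPM after 2, 6, 12 and 24 h. The 2 and 6 h libraries lay above vehicle and the 12 and 24 h libraries below it. The log2 ratio was 0.51 at 2 h (0.42 to 0.60), 0.23 at 6 h, -0.34 at 12 h and -0.39 at 24 h (-0.49 to -0.29). Zbtb46 has a long transcript, and length adjustment moved these to 0.24, -0.05, -0.64 and -0.69. Among the treated libraries the adjustment made little difference. For 24 h over 2 h the log2 ratio was -0.89 (-0.98 to -0.81), or -0.91 adjusted, and only 0.938% of compared genes were lower. The largest step was that between 6 and 12 h, where the log2 ratio was -0.57 (-0.67 to -0.48) and 0.961% of compared genes lay lower. The pan-dendritic markers, a list that includes Zbtb46, Cd74 and H2-Ab1, summed to 12370 CPM in vehicle. At 2, 6, 12 and 24 h they summed to 10000, 9104, 7936 and 7425 CPM. The sum was thus lower already at 2 h, where Zbtb46 was highest, and its part in the Zbtb46 values was not tested.

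Nfil3 (ENSMUSG00000056749, chr13:52967209-52981073, minus strand) encodes the bZIP repressor that acts early in the lineage. It was the lowest of the 8 by CPM, at 12.5 CPM in vehicle and 18.0, 15.7, 15.7 and 14.2 CPM after 2, 6, 12 and 24 h. Every treated library was above vehicle and 2 h was the highest. The log2 ratio was 0.53 at 2 h (0.35 to 0.71) and 0.18 at 24 h (0.00 to 0.37), and 0.59 and 0.33 length-adjusted. The counts behind it were 409 to 673, so its intervals were the widest of the 8. Its slopes did not pass (edgeR adjusted p = 0.811 over 5 libraries and 0.136 over the treated 4).

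Bcl6 (ENSMUSG00000022508, chr16:23965052-23988852, minus strand) encodes a BTB zinc finger repressor, and as scaled its level had the smallest range of the 8. It measured 79.2 CPM in vehicle, and 69.8, 71.5, 76.5 and 77.5 CPM after 2, 6, 12 and 24 h. The early libraries lay slightly below vehicle, and the intervals of the 12 and 24 h ratios included 0 on the log2 scale, at -0.05 (-0.13 to 0.03) and -0.03 (-0.11 to 0.04). Length-adjusted, Bcl6 was below vehicle in every treated library, at -0.31, -0.27, -0.16 and -0.13. Its highest level was 1.13 times its lowest, against 1.86 times for Zbtb46, 1.65 for Batf3 and 1.57 for Irf8. The count ratio of Bcl6 to Batf3, which carries no length adjustment, was 1.10 in vehicle (1.04 to 1.17) and 1.78 at 24 h (1.69 to 1.89), a log2 change of 0.69. Adjusted, the 2 genes stood closer at 24 h, at -0.13 and -0.38. Overlap with an opposite-strand gene covers 21 exon bases of Bcl6, and the library kit does not mark strand. Of 10 genes listed as repressed by BCL6, 6 were compared, the factor Id2 among them. Of these 6, 0 passed the size rule against vehicle, where 1.33 to 4.09% of compared genes did. For 24 h over 2 h, where 1.55% of compared genes passed, Cdkn1a, the p21 inhibitor of cyclin-dependent kinases, did so with a log2 ratio of 1.11 (0.99 to 1.23). Its levels were 23.4 CPM in vehicle and 21.1, 27.3, 34.0 and 45.5 CPM with the compound, and it is also a p53 target. Ccnd2 (cyclin D2) and Bcl2l1 (a survival gene) had log2 ratios to vehicle of 0.21 and 0.49 at 24 h as scaled. The median of the 6 compared genes at 24 h was 0.19 as scaled and -0.07 length-adjusted.

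Ikzf1 (ENSMUSG00000018654, chr11:11685003-11772926, plus strand) encodes IKAROS, a zinc finger factor that works with the NuRD complex. It measured 90.5 CPM in vehicle and 109, 107, 107 and 113 CPM at 2, 6, 12 and 24 h. All treated libraries were above vehicle and differed little from each other. The log2 ratio at 24 h was 0.32 (0.25 to 0.39), yet 0.07 after length adjustment, and it was 0.10, 0.04 and 0.01 adjusted at the earlier times. Adjusted, the treated libraries were thus close to vehicle. Its count ratio to Spi1 was 0.204 in vehicle (0.196 to 0.212) and 0.365 at 24 h (0.354 to 0.378), a log2 change of 0.84 without length adjustment. Adjusted, the 2 genes stood at 0.07 and -0.29 at 24 h.

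**Figure D3:**
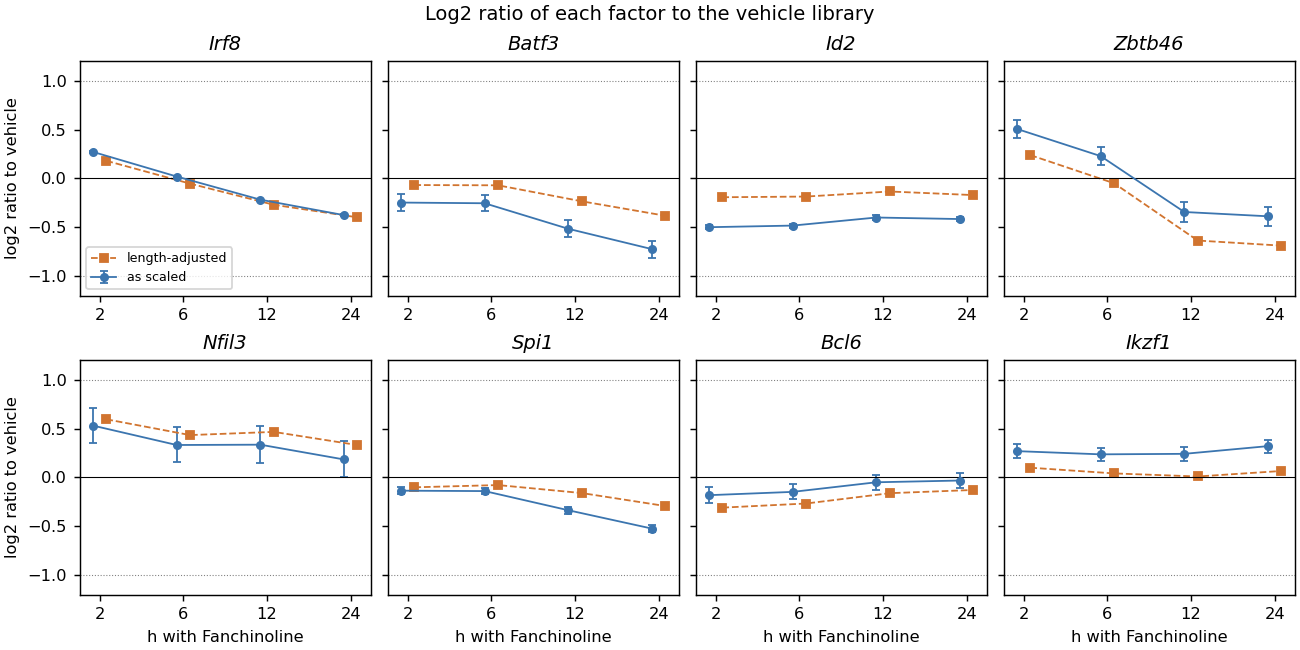
Log2 ratio to vehicle (vertical axis) of each factor at 2, 6, 12 and 24 h (horizontal axis, evenly spaced), as scaled (blue circles, error bars are exact 95% counting intervals) and after correction for transcript length and GC content (orange squares); dotted lines mark the size of 1. No point reaches the dotted lines. Irf8 and Zbtb46 cross from above to below 0, and the adjusted values of Id2 and Ikzf1 lie nearer to 0 than the scaled ones.

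The steps between consecutive treated libraries placed the changes in time without the vehicle library. No factor passed the size rule in any step, where the background was 0.328% (2 to 6 h), 0.305% (6 to 12 h) and 0.147% (12 to 24 h). From 2 to 6 h the intervals of Irf8, Zbtb46 and Nfil3 excluded a ratio of 1, with log2 ratios of -0.25, -0.28 and -0.20. From 6 to 12 h those of Zbtb46, Batf3, Irf8 and Spi1 lay below (-0.57, -0.26, -0.24 and -0.20), and Id2 and Bcl6 lay above (0.08 and 0.10). Length-adjusted, this step was -0.57 for Zbtb46, -0.16 for Batf3, -0.21 for Irf8 and -0.09 for Spi1. For Id2 and Bcl6 it was 0.05 and 0.12. From 12 to 24 h Batf3, Spi1 and Irf8 were lower (-0.21, -0.19 and -0.16) and Ikzf1 was higher (0.08). Batf3 and Spi1 had shown ratios of -0.01 and -0.00 in the step from 2 to 6 h. Counting intervals alone excluded a ratio of 1 for 46.2, 56.0 and 53.6% of compared genes in these steps, so they say little about any single gene. A size of 0.5 took no factor from 2 to 6 h (background 1.75%), Zbtb46 from 6 to 12 h (2.26%) and no factor from 12 to 24 h (1.32%). For 24 h over 2 h none of the factors passed the size rule of 1, where 0.69% of compared genes were called lower. A size of 0.5 took Irf8 and Zbtb46 there (12.0%), and intervals lay above a ratio of 1 for 2 factors and below for 5 (74.3% of compared genes either way).

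**Figure D4:**
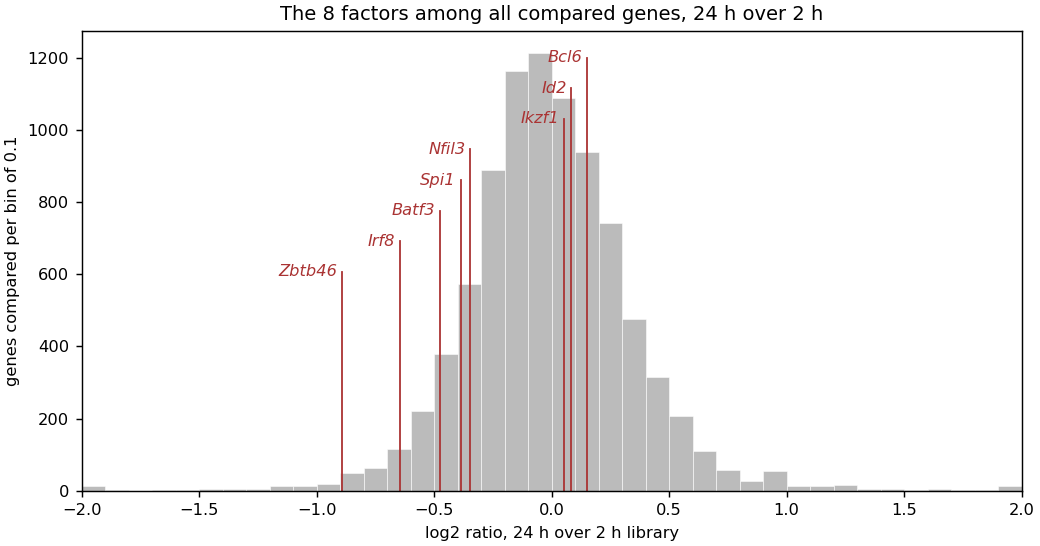
Number of compared genes (vertical axis) by their log2 ratio of 24 h over 2 h (horizontal axis, bins of 0.1; the outermost bins hold all values beyond them), with the 8 factors as lines whose height has no meaning. Zbtb46 at -0.89 and Irf8 at -0.65 lie in the lower tail, Batf3, Spi1 and Nfil3 follow, and Ikzf1, Id2 and Bcl6 lie just above 0.

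Of the binding partners and antagonists of the 8 factors, 19 of 23 listed genes were compared. At 24 h over vehicle Jund was called lower, at -1.12, or -0.30 length-adjusted. Ncor1, a corepressor used by BCL6, was at 0.74 at 24 h, or 0.12 adjusted. In edgeR's slope over the treated libraries 4 of the 19 fell (Jun, Junb, Jund and Runx1) and Tcf4 rose; over all genes 7.83% fell and 7.98% rose in that test. Runx1, a haematopoietic factor, went from 140 CPM at 2 h to 86.1 CPM at 24 h, with a slope of -0.22 (edgeR adjusted p = 0.0056). The list's median log2 ratio at 24 h was -0.08, close to that of all compared genes. Irf4, the relative of Irf8 that is typical of the cDC2 lineage, had 14 to 36 counts per library, and Prdm1, which BCL6 represses, had 15 to 48.

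Other transcription factors of dendritic cells (21 of 29 compared) included 3 that rose and 5 that fell over the treated libraries in edgeR's test, beside 7.98% and 7.83% of all genes. Relb, the NF-kB subunit needed by other dendritic cell subsets, went from 28.8 CPM at 2 h to 14.8 CPM at 24 h (slope -0.34, edgeR adjusted p = 0.0054). Mycl, a factor that IRF8 induces in cDC1, went from 42.9 to 27.7 CPM over the same libraries (slope -0.21, edgeR adjusted p = 0.018). Both were highest early and lowest at 24 h, as Irf8 was. Rel moved the other way, from 15.0 CPM in vehicle to 33.7 CPM at 24 h, and passed the size rule there at 1.17 (1.02 to 1.32), but length-adjusted it was 0.72. Notch2 passed at 2 and 6 h (1.14 and 1.05) with adjusted values of 0.49 and 0.38, and Etv3 was at 0.73 at 24 h, or 0.23 adjusted. The list's median at 24 h was 0.37 and its adjusted median -0.00.

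Members of the same families were mostly low or little moved, with 10 of 23 compared. Tef, a bZIP factor of the NFIL3-related PAR group, passed the size rule at 12 h alone, at 1.04 as scaled (0.86 to 1.22), from 10.9 CPM in vehicle to 22.4 CPM. Irf3 fell over the 5 libraries from 61.8 to 42.5 CPM (slope -0.12, edgeR adjusted p = 0.0387). Irf1 went from 136 CPM in vehicle to 191 CPM at 24 h (log2 ratio 0.49 as scaled), with an edgeR adjusted p of 0.054. Against this, Irf5 fell over the treated libraries by 0.10 per doubling (edgeR adjusted p = 0.0476).

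Genes that define the cDC1 identity (16 of 20 compared) moved in both directions. Cd8a, the surface marker of lymphoid-tissue cDC1, was called lower at 24 h, from 32.5 CPM in vehicle to 13.7 CPM (log2 ratio -1.24, or -1.21 adjusted), and Ly75, the DEC-205 receptor, was called higher at 12 h at 1.04 (0.66 adjusted). Over the treated libraries 4 fell in edgeR's test (Cd8a, Wdfy4, Flt3 and Naaa) and Ly75 rose, beside 7.83% and 7.98% of all genes. Wdfy4, needed for cross-presentation, peaked at 2 h at 1892 CPM against 955 CPM in vehicle and stood at 1320 CPM at 24 h. These levels carry no length adjustment. Flt3, the receptor of the growth factor of dendritic cells, went from 19.7 CPM at 2 h to 12.0 CPM at 24 h (slope -0.26, edgeR adjusted p = 0.0181). Snx22 was at -0.55 at 24 h as scaled. The median of the list at 24 h was -0.14, both as scaled and adjusted.

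Likeness of course was measured as the root mean square distance between the 4 log2 ratios to vehicle of a factor and those of every other compared gene. Zbtb46 had the fewest close genes, with 10 within a distance of 0.1, the nearest being Soat2 (0.040) and Pim3 (0.056). Irf8 had 81, led by Txnrd2 (0.038) and Irf2bp2 (0.049), and Batf3 had 111, led by Fbl (0.020) and Gpatch1 (0.033). The counts were 146 for Nfil3 (Klhdc10, Tbc1d9), 217 for Id2 (Selenof, Sf3b6), 298 for Spi1 (Poglut2, Tmem106c), 427 for Ikzf1 (Plin3, Ccdc50) and 534 for Bcl6 (Rbm5, Usp15). The courses of Bcl6, Ikzf1 and Spi1 were thus shared by many genes, and that of Zbtb46 by few. All ratios share the vehicle library, so likeness includes what sets that library apart.

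Genes within 100 kb of the factors were compared as well. None of the compared neighbours (2 for Irf8, 4 for Batf3, 1 for Id2, 6 for Zbtb46, 1 for Nfil3, 6 for Spi1, 0 for Bcl6 and 1 for Ikzf1) passed the size rule against vehicle. Over all compared genes 1.33, 1.94, 3.07 and 4.09% passed at 2, 6, 12 and 24 h, so 0 among so few is near that share. Emc8, 67.8 kb from Irf8, had log2 ratios of 0.22, 0.17, -0.12 and -0.14 at 2, 6, 12 and 24 h. Atf3, a stress-induced bZIP gene 61.4 kb from Batf3, had 0.46, 0.01, -0.22 and -0.37, whereas Nsl1, 11.4 kb from Batf3, had 0.18, 0.10, 0.22 and 0.17. Kidins220, 30.6 kb from Id2, was higher in every treated library, at 0.51, 0.65, 0.63 and 0.75, where Id2 was lower as scaled. The ratios of the neighbours are given without length adjustment. Id2 itself lay nearer to vehicle after adjustment, at -0.19 at 2 h and -0.17 at 24 h.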

How the data were processed

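Poly-A RNA was sequenced with TruSeq RNA chemistry, which keeps no strand information; the kit is named in the labels' protocols. The authors deposited raw counts per gene with 1 column per time point. Trim Galore, HISAT2 and GRCm38 are named in the submitters' processing notes; the counting program, annotation and strand setting: not given in the sources used here. Every column was mapped to a sample. At 10 CPM a gene had 328 to 427 counts, and 3 counts, the most that a count of 0 allows, were 0.070 to 0.092 CPM.

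Counts were scaled with edgeR 4.0.16 (TMM, factors 0.977 to 1.05) on R 4.3.3; log2 ratios used a prior count of 2. Slopes were tested with edgeR's quasi-likelihood test (filterByExpr, Benjamini-Hochberg adjustment, threshold 0.05), checked on simulated counts. With 1 library per time point, 2 libraries were compared by size and counting interval only. Length adjustment used mgcv 1.9.3 on log2 length of the longest transcript and GC content (GENCODE on GRCm38, 99.9% of compared genes found). DESeq2 1.42.0 served as an alternative.

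Named were all 8 factors, up to 4 genes per list with the largest ratio at 24 h, any list gene past the size rule, and the 2 genes nearest each factor in course. Some named genes are left out and not reported here. Other list genes and neighbours, and the comparison of 24 h over 2 h, were chosen after their values were seen. The factors and lists were chosen with earlier results of these data known.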

Additional observations from a re-analysis of the deposited data

How the results depend on the processing

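The count of factors past the size rule, 0 in each of the 4 comparisons with vehicle and the 3 consecutive steps, stayed 0 under DESeq2 size factors, library totals, a prior count of 0.5, length adjustment, summed entries, a minimum of 1 CPM and no minimum. With a size of 0.5 it was 2 at 2 h (Zbtb46 and Nfil3; background 16.4%), 1 at 12 h (Batf3; 22.9%), 2 at 24 h (Batf3 and Spi1; 27.5%) and 1 for 12 h over 6 h (Zbtb46; 2.26%). The count past the 5-library slope, 1, became 4 without the vehicle library and 2 with DESeq2's Wald test (20.4% of 11455 genes). It was 0 on a slope per hour (edgeR called 0 genes; at unadjusted p under 0.05, 2746 genes and 4 factors), 0 without the 12 h library (0 genes; 2886 genes and 2 factors unadjusted), 0 without the 24 h library (28 genes; 3202 genes and 1 factor unadjusted) and 0 without a filter (0 of 24170 genes; 4843 genes and 2 factors unadjusted). Over all genes the slope called 1309, against 2177 without vehicle, 2202 without 2 h and 509 without 6 h. Slopes that changed sign were those of Id2 without vehicle (0.036), Nfil3 per hour (-0.0026) and without vehicle (-0.10), and Bcl6 without 2 h (-0.0092), 12 h (-0.0028) or 24 h (-0.018). Of 32 log2 ratios to vehicle, length adjustment moved 28 outside their intervals, by up to 0.34, and changed the sign of Irf8 and Zbtb46 at 6 h. Library totals moved 12, by up to 0.10, with Bcl6 at 24 h changing sign, and moved the median of all genes at 24 h to 0.10. DESeq2 size factors moved 3, and the other settings 0.

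With 1 library per time point leaving out a replicate was not possible, and the treated-only slopes of Irf8, Zbtb46, Batf3 and Spi1 rest on 4 libraries and were not rerun under other settings, nor was the comparison of 24 h over 2 h beyond a size of 0.5 and length adjustment. No paired analysis was possible because each group has 1 library and the labels give no replicate numbers. Depth limits Nfil3 most.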
